A study of Homo sapiens with 6 samples.

Results

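The mitochondrial carrier family SLC25 was followed in U87 cells after knockdown of the long noncoding RNA LINC00152. Its members were taken by name, as every gene symbol made of SLC25A and a number, which gave 48 of the 27192 genes listed. Of the 48, 40 had enough counts to be tested. The rule used only the gene name and no measured value.

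U87 is an established human glioblastoma cell line. The 3 control libraries, A, B and C, came from U87 cells transfected with siGL2, which the labels call a nonspecific control siRNA, and the 3 knockdown libraries, also A, B and C, from U87 cells that received 2 siRNAs against LINC00152 in combination. Every culture was transfected 2 times, 24 hours apart, with the same lipid reagent, and was collected 24 hours after the last transfection. Because the siRNAs were used together, what each of them does alone was not analysed here. The labels do not say whether the libraries of a group came from separate cultures, and the p-values therefore reflect the spread among these 6 libraries, which may be technical.

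SLC25 proteins sit mostly in the inner mitochondrial membrane, where each carries a small molecule that the membrane does not let through by itself. A member has 3 similar repeats, each with a pair of membrane helices, and most members swap a substrate from the matrix for one from the outside. Through them the matrix exchanges ADP and ATP, phosphate, amino acids, the acids of the citric acid cycle, acylcarnitines, iron, glutathione, coenzymes and nucleotides with the cytosol.

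Total counts lay between 41963120 and 46234763 per library. LINC00152 stood at 650, 608 and 776 counts in the siGL2 libraries and at 114, 112 and 109 in the siLINC00152 libraries, a fall to 17.6% of the control level (adjusted p = 4.55e-15). Of the 8 glial and glioma markers, VIM, CD44 and NES stood highest, with means of 8974, 2696 and 38.2 CPM in siGL2, and all 3 fell. GFAP had 2 to 12 counts per library and was not tested. OLIG2 had 15 to 28 counts and did not pass, and S100B, SOX2 and AQP4 had at most 10 counts in any library. Among 14 markers of neuronal, immune, endothelial and epithelial cells, 7 had at most 10 counts in every library, among them RBFOX3, PTPRC, CDH5 and CDH1. The summed level of these 14 markers was 412.2 to 413.7 CPM in the siGL2 libraries and 343.4 to 372.5 CPM in the siLINC00152 libraries, most of it from CD68 and SNAP25, and 2 of the 7 tested rose and 3 fell. Their part in the results on the carriers was not tested.

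The carriers were lower on balance after knockdown. Their raw counts together made up 0.213% to 0.222% of a siGL2 library and 0.178% to 0.180% of a siLINC00152 library, and the groups did not overlap. These shares use library size alone as the scale, on which the median log2 fold change of all tested genes was −0.07. SLC25A5 and SLC25A3, the members with the most counts, weigh most in the shares, and both fell. Of the 40 tested members, 26 passed an adjusted p under 0.05 (edgeR quasi-likelihood test, Benjamini-Hochberg adjustment over all tested genes), where 64.3% of all 14078 tested genes passed. By direction, 19 members fell (47.5%, against 32.2% of all tested genes) and 7 rose (17.5%, against 32.2%). A fall of at least 1.5-fold was found in 8 members (20%, against 10.4% of all tested genes) and a rise of that size in 2 (5%, against 9.53%). The median log2 fold change of the tested members was −0.15, beside −0.00 over all tested genes. The libraries of the 2 groups did not overlap in 29 of the 40 members, which was the case for 67.7% of all tested genes. In bulk RNA, fewer cells of a kind and less RNA of a gene per cell cannot be told apart.

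**Figure D1:**
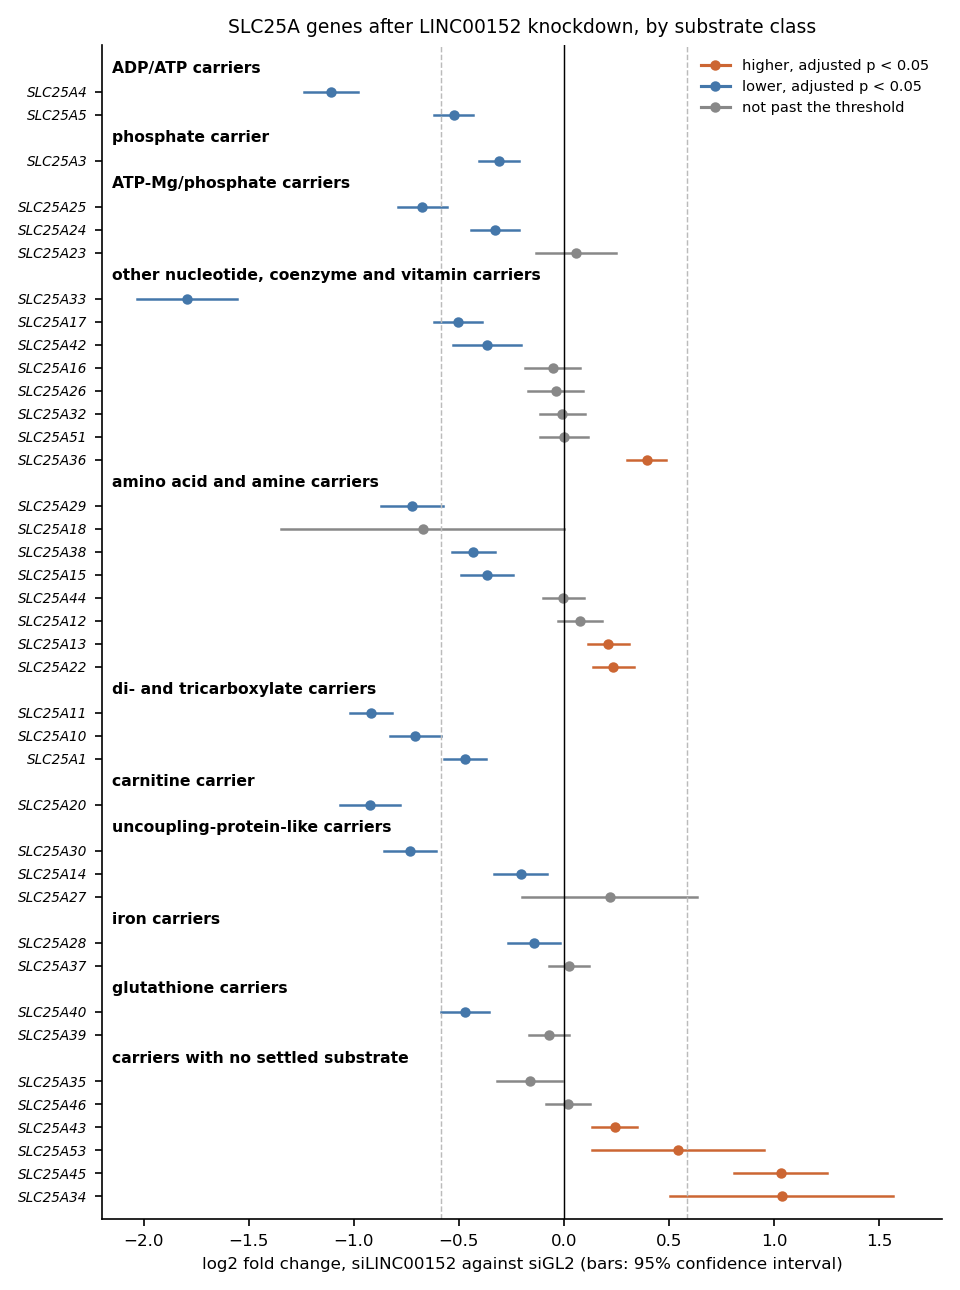
Log2 fold change of tested SLC25A genes, siLINC00152 against siGL2 (x axis), grouped by substrate; bars are 95% confidence intervals and dashed lines mark a 1.5-fold change. All 3 tested di- and tricarboxylate carriers lie to the left of 0, SLC25A33 lies farthest left at −1.80, and SLC25A45 and SLC25A34 lie farthest right.

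The largest fall was in SLC25A33, a carrier of pyrimidine nucleotides (ENSG00000171612.6, chromosome 1, 9539482 to 9585179, plus strand). Its counts were 273, 340 and 365 in siGL2 libraries A, B and C and 88, 83 and 93 in siLINC00152 libraries A, B and C. All siLINC00152 libraries were far below the lowest siGL2 library. In CPM, counts scaled to a common library size with TMM factors, SLC25A33 went from 7.29 ± 0.870 to 2.10 ± 0.110 (SD, n = 3), which is 3.47-fold lower (log2 fold change −1.80 ± 0.11, SE; adjusted p = 2.42e-11 in edgeR's test). Other genes, mainly AC135977.1 and TMEM41B, share 14.9% of the 75-base stretches of its transcripts. SLC25A36, the other carrier of pyrimidine nucleotides (chromosome 3, 140941830 to 140980961, plus strand), moved the opposite way. It had 5093, 4928 and 5797 counts in the siGL2 libraries and 6286, 6525 and 6687 after knockdown, again without overlap. SLC25A36 rose by 0.39 ± 0.04 on the log2 scale, from 118 ± 4.28 to 155 ± 1.98 CPM (adjusted p = 1.56e-07). Scaled to transcript length, SLC25A33 held 4.55% ± 0.545 of the pair's level in siGL2 and 1.03% ± 0.0539 in siLINC00152 libraries (SD, n = 3). With the union of all annotated exons as the length, these shares were 14.2% ± 1.53 and 3.49% ± 0.178. SLC25A36 was the main form with either length.

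ADP/ATP carriers move ATP made in the matrix out to the cytosol in exchange for ADP, and the 2 that could be tested fell. SLC25A4 (ANT1, the form of heart and muscle; ENSG00000151729.10, chromosome 4, 185143241 to 185150382, plus strand) had 1106, 1183 and 1323 counts in the siGL2 libraries and 524, 509 and 539 after knockdown. It fell 2.15-fold, from 26.9 ± 1.30 to 12.5 ± 0.347 CPM (log2 fold change −1.11 ± 0.06; adjusted p = 3.05e-12), and the groups did not overlap. SLC25A5 (ANT2, the form of dividing cells; chromosome X, 119468400 to 119471319, plus strand) was the most abundant member of the family, with 15553, 16671 and 18510 counts in the siGL2 libraries. In the siLINC00152 libraries it had 10879, 11108 and 11063, all below the lowest control. SLC25A5 fell 1.44-fold, from 378 ± 17.6 to 263 ± 2.81 CPM (log2 fold change −0.53 ± 0.04; adjusted p = 2.09e-09). Of its exonic bases, 15.1% overlap SLC25A5-AS1 on the opposite strand, which itself fell by 0.49 ± 0.15 on the log2 scale (adjusted p = 0.00773). SLC25A31 (ANT4, the testis form) had 1 count in the 6 libraries together.

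SLC25A6 (ANT3, found in most tissues) was listed at 9, 9 and 14 counts in the siGL2 libraries and at 9, 15 and 10 in the siLINC00152 libraries, and did not pass the filter on low counts. The gene lies in the pseudoautosomal region of chromosome X, from 1386152 to 1392724 on the minus strand, and is annotated a second time on chromosome Y, so 100% of its 75-base stretches occur at both places. The other 17 protein-coding genes annotated in both copies and listed in the tables were also low. Of these, 12 had at most 20 counts in every library, 5 had none at all, and the highest count in any library was 167, in PPP2R3B. The sources used here do not give how reads with several matches were counted, so the level of SLC25A6 cannot be read from these tables.

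SLC25A3, which brings phosphate into the matrix for ATP synthase (chromosome 12, 98593591 to 98606379, plus strand), fell 1.24-fold. Its counts were 13187, 14325 and 15407 against 10990, 10829 and 10728, and the groups did not overlap. Its level went from 320 ± 14.6 to 259 ± 7.93 CPM (log2 fold change −0.31 ± 0.05; adjusted p = 6.26e-06). The ATP-Mg/phosphate carriers set the size of the matrix pool of adenine nucleotides and respond to calcium. Of these, SLC25A25 (chromosome 9, 128068201 to 128109245, plus strand) had 1243, 1253 and 1413 counts in siGL2 and 740, 753 and 806 in siLINC00152 libraries. SLC25A25 fell 1.60-fold, from 29.2 ± 0.631 to 18.3 ± 0.554 CPM (log2 fold change −0.67 ± 0.06; adjusted p = 1.60e-09). SLC25A25-AS1, which overlaps 16.2% of its exonic bases on the opposite strand, rose from 3.55, 4.10 and 3.21 CPM to 5.77, 5.31 and 6.38 CPM (log2 fold change 0.69 ± 0.11; adjusted p = 1.24e-05). Library preparation kept the strand, but whether the counting used it is not stated in the sources used here. SLC25A24, the most abundant of the class by CPM, had 1857, 1868 and 2224 counts against 1377, 1491 and 1578 and fell by 0.33 ± 0.06 on the log2 scale (adjusted p = 2.90e-05); AL359258.2, on the opposite strand, covers 13.7% of its exonic bases. SLC25A23 stood at 0.06 ± 0.09 with a 95% interval of −0.13 to 0.25, and SLC25A41 had at most 4 counts in a library.

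All 3 tested carriers of citric acid cycle acids passed downward, as did 32.2% of all tested genes, and no test was made on the class. The remaining one, SLC25A21, had 1 count in the 6 libraries together. SLC25A11 exchanges 2-oxoglutarate for malate and is one of the carriers of the malate-aspartate shuttle, which brings the reducing power of cytosolic NADH into the matrix (ENSG00000108528.13, chromosome 17, 4937130 to 4940251, minus strand). It had 2969, 3085 and 3307 counts in the siGL2 libraries and 1550, 1512 and 1591 after knockdown. Every siLINC00152 library was well under every control, and SLC25A11 fell 1.89-fold, from 69.9 ± 1.49 to 37 ± 0.925 CPM (log2 fold change −0.92 ± 0.05; adjusted p = 1.19e-12). RNF167, on the opposite strand, covers 9.14% of its exonic bases. SLC25A10, which exchanges malate or succinate for phosphate (chromosome 17, 81712236 to 81721016, plus strand), had 1365, 1349 and 1476 counts against 843, 785 and 779. It fell 1.63-fold, from 31.3 ± 0.140 to 19.2 ± 1.19 CPM (log2 fold change −0.71 ± 0.06; adjusted p = 1.29e-09); 46.6% of its exonic bases also belong to AC139530.2 on the same strand. SLC25A1, which exports citrate for fatty acid and sterol synthesis (chromosome 22, 19175575 to 19178830, minus strand), had 2929, 2913 and 3150 counts against 2080, 1985 and 2019. It fell 1.39-fold, from 67.2 ± 0.502 to 48.4 ± 1.92 CPM (log2 fold change −0.47 ± 0.05; adjusted p = 2.97e-08).

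SLC25A20 carries acylcarnitines into the matrix for fatty acid oxidation in exchange for carnitine (ENSG00000178537.9, chromosome 3, 48856931 to 48898993, minus strand). Its counts were 1009, 1084 and 1210 in siGL2 and 547, 585 and 502 in siLINC00152 libraries, with no overlap. SLC25A20 fell 1.90-fold, from 24.6 ± 1.23 to 13 ± 1.1 CPM (log2 fold change −0.92 ± 0.07; adjusted p = 2.66e-10). None of its exonic bases overlap another annotated gene.

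**Figure D2:**
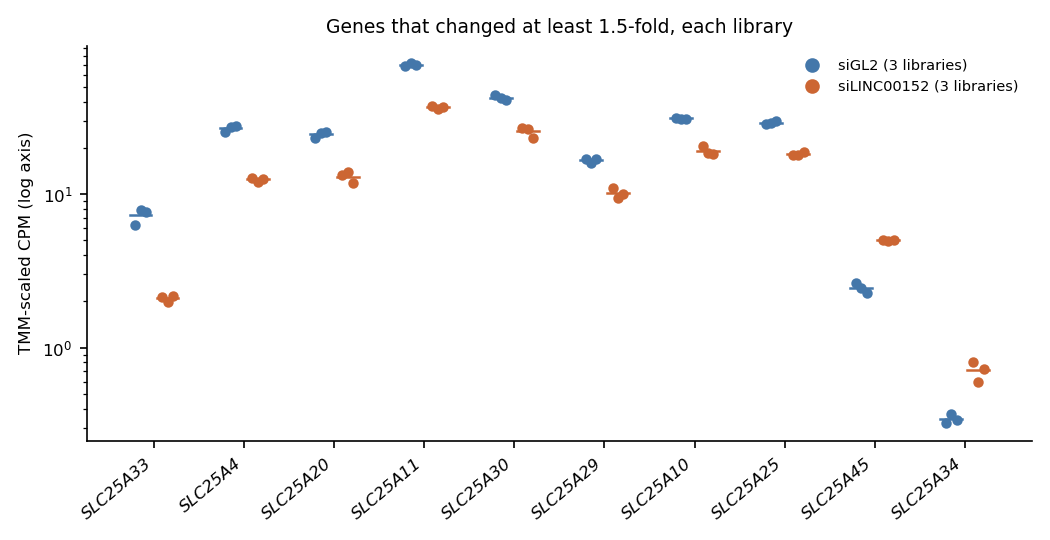
TMM-scaled CPM on a log axis (y) for the 10 SLC25A genes that changed at least 1.5-fold (x), 1 point per library and a line at the mean of 3; siGL2 in blue and siLINC00152 in orange. The siLINC00152 libraries lie below every siGL2 library in the 8 genes on the left and above them in SLC25A45 and SLC25A34.

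The promoters of the 4 members with the largest falls in log2 fold change are printed here. These genes were picked for their falls, so nothing about their promoters is tested. Each is the RefSeq window of 300 bases (GRCh38.p14), from 250 bases before the gene's start to 50 after it, read 5′ to 3′ on the strand of the gene, and capitals mark letters that match a searched motif other than the GC box.
SLC25A33, chr1:9539215-9539514, plus strand: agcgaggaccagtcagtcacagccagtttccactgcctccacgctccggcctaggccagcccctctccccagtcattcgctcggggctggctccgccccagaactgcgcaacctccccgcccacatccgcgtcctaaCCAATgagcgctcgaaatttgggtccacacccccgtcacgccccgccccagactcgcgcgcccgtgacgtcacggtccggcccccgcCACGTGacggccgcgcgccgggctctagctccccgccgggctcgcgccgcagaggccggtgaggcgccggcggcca
SLC25A4, chr4:185143016-185143315, plus strand: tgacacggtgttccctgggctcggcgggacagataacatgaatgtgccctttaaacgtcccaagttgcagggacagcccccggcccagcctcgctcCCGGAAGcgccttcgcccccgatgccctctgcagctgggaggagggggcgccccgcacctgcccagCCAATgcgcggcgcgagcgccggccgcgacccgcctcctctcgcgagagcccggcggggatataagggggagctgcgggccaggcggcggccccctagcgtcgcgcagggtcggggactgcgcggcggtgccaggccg
SLC25A20, chr3:48898833-48899132, minus strand: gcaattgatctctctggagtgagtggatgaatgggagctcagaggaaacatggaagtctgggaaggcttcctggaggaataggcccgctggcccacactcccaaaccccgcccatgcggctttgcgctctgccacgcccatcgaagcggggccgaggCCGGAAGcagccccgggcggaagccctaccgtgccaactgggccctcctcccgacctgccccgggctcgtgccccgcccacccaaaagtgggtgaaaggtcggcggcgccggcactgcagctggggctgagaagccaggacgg
SLC25A11, chr17:4939997-4940296, minus strand: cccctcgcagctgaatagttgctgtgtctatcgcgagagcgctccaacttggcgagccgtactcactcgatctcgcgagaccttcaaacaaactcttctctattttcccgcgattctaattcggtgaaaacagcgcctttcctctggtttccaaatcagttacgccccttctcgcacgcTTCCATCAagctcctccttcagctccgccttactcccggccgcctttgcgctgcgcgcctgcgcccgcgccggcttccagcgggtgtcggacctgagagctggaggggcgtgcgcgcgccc
RefSeq windows were matched by symbol for 40 of the 48 members, 51 windows in all because some genes have several starts and SLC25A6 has a window on each sex chromosome. Both strands were searched for CCGGAAG (ETS family), CACGTG (E-box), TGATGNAA (ATF4-type), CCAAT, AAGATGGC (YY1), GGGCGG (GC box), and for the palindromic core of the NRF1 motif. The ETS letters stand in the windows of SLC25A4 and SLC25A20, the E-box in that of SLC25A33, the ATF4-type letters in that of SLC25A11, and CCAAT in those of SLC25A33 and SLC25A4. The ETS letters are in 11 of the 51 windows (21.6%, against 10.3% of all 35116 RefSeq windows) and the E-box in 9 (17.6%, against 7.26%). CCAAT is in 23 windows (45.1%, against 34.6%), the GC box in 34 (66.7%, against 45.0%), the YY1 letters in 2 (3.92%, against 2.89%), the ATF4-type letters in 1 (1.96%, against 3.62%) and the NRF1 core in 0 (against 1.24%). The E-box windows belong to 9 members, 8 of them tested: SLC25A33 and SLC25A38 fell, SLC25A13, SLC25A22 and SLC25A36 rose, and SLC25A26, SLC25A46 and SLC25A51 did not pass the test. These matches describe letters, some windows of a gene overlap each other, and no binding was measured.

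Carriers of amino acids went both ways, with 3 of the 8 tested members lower, 2 higher and 3 not past the threshold. These are 37.5% lower and 25% higher, against 32.2% of all tested genes in each direction, and no test was made on the class. SLC25A29, which carries basic amino acids (chromosome 14, 100291111 to 100306547, minus strand), had 742, 694 and 807 counts in siGL2 and 452, 396 and 428 in siLINC00152 libraries. It fell 1.65-fold, from 16.7 ± 0.587 to 10.2 ± 0.796 CPM (log2 fold change −0.72 ± 0.07; adjusted p = 1.79e-08). SLC25A38, which brings in glycine for haem synthesis, fell by 0.43 ± 0.05 on the log2 scale (adjusted p = 1.43e-07), and SLC25A15, which exchanges ornithine and citrulline, fell by 0.37 ± 0.06 (adjusted p = 1.56e-05). The 2 that rose both carry glutamate. SLC25A22 rose by 0.24 ± 0.05 (adjusted p = 2.07e-04), and 10.8% of its exonic bases overlap PANO1 on the opposite strand. SLC25A13, the aspartate/glutamate exchanger also called citrin (chromosome 7, 96120220 to 96322147, minus strand) and the most abundant of the class by CPM, had 2334, 2318 and 2628 counts against 2595, 2721 and 2594. After scaling, SLC25A13 stood at 53.8, 53.6 and 55.5 CPM in siGL2 and 63.2, 64.7 and 60.9 CPM in siLINC00152 libraries, without overlap, and rose by 0.21 ± 0.05 (adjusted p = 5.46e-04). Its paralog SLC25A12 (aralar) did not pass, at 0.08 ± 0.05 with a 95% interval of −0.03 to 0.18. SLC25A44, a carrier of branched-chain amino acids, stood at −0.00 ± 0.05 (95% interval −0.10 to 0.10). SLC25A18, a glutamate carrier with 7 to 23 counts per library and 11% of its exonic bases under AC007666.1 on the opposite strand, stood at −0.67 ± 0.32 (adjusted p = 0.0745); it passed without siLINC00152 replicate A, at −1.01 (adjusted p = 0.0252). SLC25A2 had at most 4 counts in a library.

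The aspartate/glutamate and 2-oxoglutarate/malate carriers serve the same shuttle, and their transcripts differed in direction. SLC25A11 fell 1.89-fold, SLC25A13 rose 1.16-fold and SLC25A12 did not pass the test. Enzymes were listed for this shuttle and the glycerol phosphate shuttle together. Of these 7 enzymes, 6 were tested and all 6 fell, against 32.2% of all tested genes, with a median log2 fold change of −0.27. GPD1 had 2 to 9 counts per library and was not tested, and no test was made on the list. GOT2, the mitochondrial aspartate aminotransferase, fell by 0.56 ± 0.04, the cytosolic malate dehydrogenase MDH1 by 0.48 ± 0.05 and GPD1L, an enzyme of the glycerol phosphate type, by 0.29 ± 0.05.

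Carriers of coenzymes and vitamins mostly stayed near their control level. Beside SLC25A33 and SLC25A36, 7 members of this class were tested. SLC25A17, the peroxisomal member of the family, which carries coenzyme A and related nucleotides, fell by 0.51 ± 0.05 on the log2 scale (adjusted p = 8.34e-08). SLC25A42, which carries coenzyme A into mitochondria, fell by 0.37 ± 0.08 (adjusted p = 3.26e-04). SLC25A16, SLC25A26 (S-adenosylmethionine), SLC25A32 (folate) and SLC25A51 (NAD) did not pass and lay between −0.05 and −0.00, with standard errors of 0.05 to 0.06. LRIG1 covers 15.5% of the exonic bases of SLC25A26 on the opposite strand. The 95% interval of SLC25A32 ran from −0.12 to 0.10 and that of SLC25A51 from −0.12 to 0.11. Of the 75-base stretches of SLC25A32, 73.9% also occur in other genes, nearly all in AC012213.5 on the same strand. SLC25A52 had 2 counts in the 6 libraries together.

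Among carriers that resemble uncoupling proteins, SLC25A30 (chromosome 13, 45393316 to 45418455, minus strand) fell 1.66-fold. Its counts were 1916, 1849 and 1960 against 1113, 1125 and 1000, and its level went from 42.8 ± 1.36 to 25.8 ± 2.0 CPM (log2 fold change −0.73 ± 0.06; adjusted p = 9.86e-10). SLC25A14 fell by 0.21 ± 0.06 on the log2 scale (adjusted p = 0.00553), and SLC25A27, with 32 to 44 counts per library, stood at 0.22 ± 0.20 and did not pass. Of the family's members that carry other symbols, UCP2 fell by 0.81 ± 0.09 and MTCH1 by 0.17 ± 0.04, while UCP3 and MTCH2 did not pass and UCP1 had 0 counts in every library, which allows up to 3 counts in each (counting error only).

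Iron and glutathione carriers each come as a pair of paralogs, and in both pairs the more abundant one by CPM did not pass. SLC25A37 (mitoferrin-1) had 4708, 4450 and 4699 counts in siGL2 and 4377, 4365 and 4495 in siLINC00152 libraries. After scaling, the groups overlapped, and its log2 fold change of 0.02 ± 0.05 had a 95% interval of −0.07 to 0.12. SLC25A28 (mitoferrin-2) fell by 0.14 ± 0.06 (adjusted p = 0.0397). That call was lost with DESeq2, with no filter on low counts, and when any 1 library other than siGL2 replicate C was left out (−0.16 to −0.12). SLC25A39, a glutathione importer, had 5386, 5663 and 6063 counts against 5195, 4954 and 5120 and stood at −0.07 ± 0.05 (95% interval −0.17 to 0.02). With library size alone as the scale, it passed at −0.14 (adjusted p = 0.0118). SLC25A40, its paralog, fell by 0.47 ± 0.06 (adjusted p = 2.67e-07).

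Members with no settled substrate held the family's largest rises: 4 of the 6 tested rose, none passed downward and 2 did not pass. Of all tested genes, 32.2% rose, and no test was made on the class. SLC25A45 (ENSG00000162241.12, chromosome 11, 65375192 to 65383701, minus strand) had 114, 106 and 108 counts in siGL2 and 206, 209 and 215 in siLINC00152 libraries, so the groups stood wide apart. It rose 2.04-fold, from 2.45 ± 0.172 to 5.01 ± 0.0374 CPM (log2 fold change 1.03 ± 0.11; adjusted p = 3.64e-08). SLC25A34 (chromosome 1, 15736405 to 15741396, plus strand) had 14, 16 and 16 counts against 33, 25 and 31. It rose 2.05-fold (log2 fold change 1.04 ± 0.25; adjusted p = 0.0013) from a level of 0.344 ± 0.0243 CPM, with a wide 95% interval of 0.51 to 1.57. SLC25A43 rose by 0.24 ± 0.05 (adjusted p = 3.19e-04). SLC25A53, with 29 to 52 counts per library, rose by 0.54 ± 0.20 (adjusted p = 0.0204) and did not pass without siGL2 replicate B (0.47) or without siLINC00152 replicate C (0.45). SLC25A46, a protein of the outer membrane linked to mitochondrial fission, is the most abundant of these, with 5608, 5650 and 6449 counts against 5116, 5883 and 5840. Its scaled levels overlapped between the groups, and it stood at 0.02 ± 0.05 (95% interval −0.08 to 0.12). SLC25A35 stood at −0.16 ± 0.07 (adjusted p = 0.059), with 33.2% of its exonic bases under RANGRF on the opposite strand. It passed with library size alone, at −0.23 (adjusted p = 0.0098). SLC25A47 had at most 4 counts in a library and SLC25A48 had 0 in every library, which allows up to 3 counts in each.

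At least 2-fold changes were found in 2 members downward, SLC25A33 and SLC25A4, where 3.53% of all tested genes fell that far, and in 2 members upward, SLC25A45 and SLC25A34, where 3.08% of all tested genes rose that far. By mean CPM, SLC25A45 lay at the 24.0th percentile of the tested genes and SLC25A34 at the 7.57th. Of the 2 members that fell so far, SLC25A33 lay at the 25.9th percentile, close to SLC25A45, and SLC25A4 at the 45.8th.

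Levels of different members were compared as TMM-scaled CPM per kilobase of transcript, using the median length of the transcripts tied to RefSeq in GENCODE 29. In the siGL2 libraries SLC25A5 came first with 297 ± 13.8 CPM per kilobase, followed by SLC25A3 with 179 ± 8.13. SLC25A46 (83.9 ± 2.37) and SLC25A39 (81.6 ± 2.23) came next and did not differ beyond their spread. SLC25A11 (73.4 ± 1.57), SLC25A1 (42.5 ± 0.318), SLC25A36 (39.7 ± 1.44) and SLC25A32 (33 ± 1.82) followed (SD, n = 3). After knockdown SLC25A5 (206 ± 2.21) and SLC25A3 (144 ± 4.42) still led, and SLC25A36 (52.2 ± 0.668) stood above SLC25A11 (38.9 ± 0.971) and SLC25A1 (30.6 ± 1.21). The order depends on the length used: with the union of all annotated exons, SLC25A3 stood at 36, SLC25A46 at 15.9 and SLC25A5 at 252 CPM per kilobase in siGL2 libraries.

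Summed by class on this per-kilobase scale, the di- and tricarboxylate carriers went from 132 ± 1.52 to 79.5 ± 2.57, a ratio of 0.601, and the ADP/ATP carriers from 303 ± 14.1 to 209 ± 2.19, a ratio of 0.690 (SD, n = 3; no test was made on sums). The carnitine carrier stood at a ratio of 0.528. The ATP-Mg/phosphate and uncoupling-protein-like classes stood at 0.753 and 0.748, and the phosphate carrier at 0.809. Glutathione carriers (0.926), amino acid carriers (0.949), iron carriers (0.973), other nucleotide, coenzyme and vitamin carriers (1.03) and those with no settled substrate (1.04) lay closer to 1. The whole family summed to 1151 ± 31.4 in siGL2 and 947 ± 6.76 in siLINC00152 libraries. The ADP/ATP carriers made up 26.4% of that sum in siGL2 and 22.1% in siLINC00152 libraries, without a readable value for SLC25A6. With the exon union as the length, the ADP/ATP share was 40.6% and then 35.4%, and the other nucleotide, coenzyme and vitamin carriers stood at a ratio of 0.978, on the other side of 1.

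**Figure D3:**
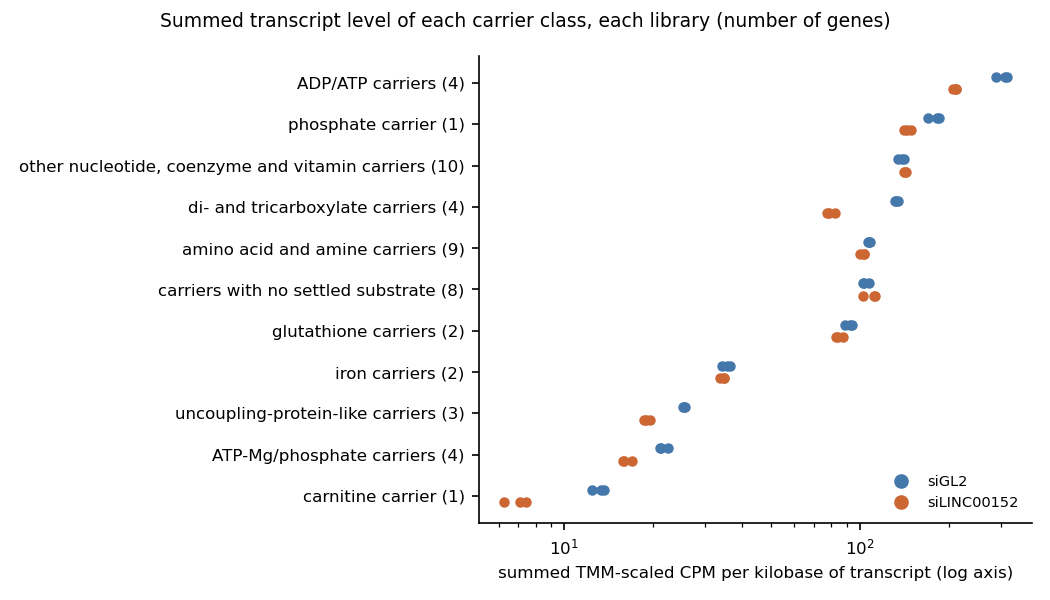
Summed TMM-scaled CPM per kilobase of transcript on a log axis (x) for each carrier class (y, number of genes in brackets), 1 point per library, siGL2 in blue and siLINC00152 in orange. The groups lie farthest apart in the carnitine carrier and the di- and tricarboxylate carriers, and close together in the iron carriers.

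Within paralog groups the main member stayed the main one. SLC25A5 held 98.0% ± 0.0141 of the readable ADP/ATP carrier level in siGL2 and 98.6% ± 0.0301 in siLINC00152 libraries, and SLC25A4 2.0% ± 0.00713 and 1.35% ± 0.0431. SLC25A13 held 53.9% ± 0.264 of the aspartate/glutamate pair and then 56.3% ± 0.411. Among the ATP-Mg/phosphate carriers, SLC25A25 went from 37.9% ± 0.599 to 31.5% ± 0.298, and SLC25A24 held 53.6% ± 1.0 and 56.8% ± 1.35. SLC25A40 went from 11.1% ± 0.375 of the glutathione pair to 8.63% ± 0.737 (18.2% and 14.5% with the exon union as the length), and SLC25A28 from 39.2% ± 0.966 of the mitoferrin pair to 36.4% ± 0.517. In each of these shares the libraries of the 2 groups did not overlap, and no test was made on shares. SLC25A22 held 98.9% ± 0.113 and 99.4% ± 0.227 of the glutamate pair, and SLC25A15 over 99% of the ornithine pair in every library.

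**Figure D4:**
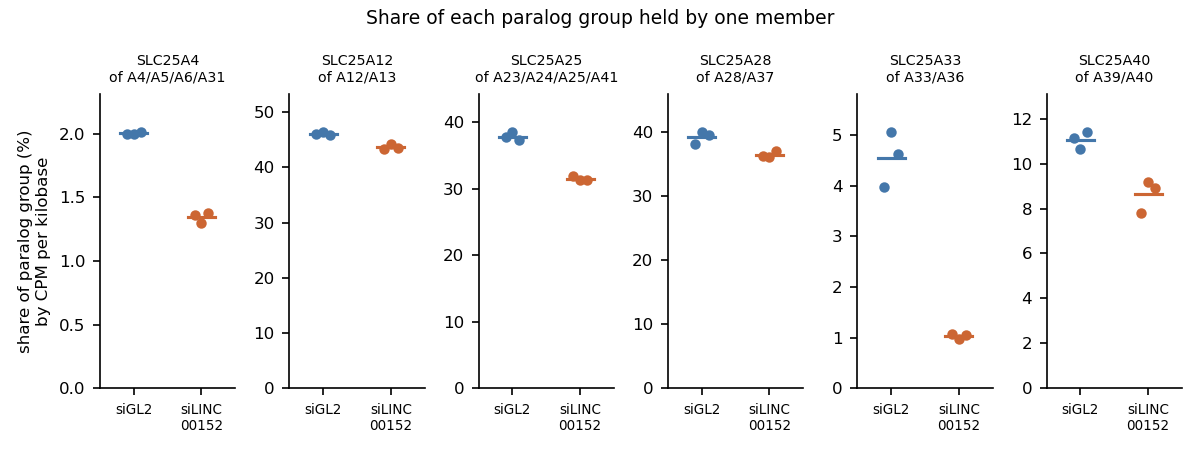
Share of a paralog group's level held by 1 member (y, percent of CPM per kilobase of median transcript length, each axis from 0), 1 point per library and a line at the mean; siGL2 in blue and siLINC00152 in orange. SLC25A33 goes from 4.55% to 1.03% of its pair, while SLC25A12 and SLC25A28 shift by a few percentage points.

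Related genes were counted in 10 lists beside the carriers, and overlap with other genes was computed for the carriers only. No test was made on any list, and 32.2% of all tested genes passed in each direction. In the import pathway that places carriers in the inner membrane, 6 of 15 tested genes fell (40%) and 2 rose (13.3%). The median log2 fold change was −0.03. The small chaperones of the intermembrane space that escort carriers were among those that moved: TIMM10 fell by 0.57 ± 0.06 and TIMM9 by 0.56 ± 0.08, while TIMM10B rose by 0.42 ± 0.05. Of 18 other mitochondrial transporters, 5 rose and 5 fell (27.8% each), with a median of −0.05. Among them the sideroflexin genes SFXN3 (0.77 ± 0.05) and SFXN1, a serine transporter (0.42 ± 0.04), rose, and SFXN2 fell by 1.18 ± 0.11.

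Enzymes that share substrates with the carriers did not all follow them. Of 5 tested genes on the list of the carnitine shuttle, 3 fell (60%) and 1 rose (20%), against 32.2% of all tested genes in each direction. CPT1C (−0.64 ± 0.06) fell, as did CPT1A, the enzyme of the outer membrane (−0.41 ± 0.05). CPT2, the enzyme on the inner face, rose by 0.86 ± 0.06. Of 14 enzymes of citrate and dicarboxylates, 5 rose and 5 fell (35.7% each), with a median of −0.06. Pyruvate carboxylase (PC) rose by 1.01 ± 0.05, while fumarase (FH) fell by 0.45 ± 0.05 and the succinate dehydrogenase subunit SDHA by 0.35 ± 0.04. Of 13 mitochondrial amino acid enzymes, 7 rose (53.8%) and 5 fell (38.5%), with a median of 0.25. ALDH18A1, an enzyme of proline and ornithine synthesis, rose by 0.38 ± 0.04, and the serine hydroxymethyltransferase SHMT2 fell by 0.46 ± 0.05.

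Coenzyme and nucleotide enzymes were mostly lower, with 11 of 15 lower, 3 higher and a median of −0.25. TK2, the mitochondrial thymidine kinase, fell by 1.94 ± 0.05, the folate enzyme MTHFD2 by 1.30 ± 0.05 and thymidylate synthase (TYMS) by 0.74 ± 0.04. Iron-sulfur and haem enzymes were mixed, with 6 of 13 higher and 5 lower and a median of 0.12: ferrochelatase (FECH, 0.55 ± 0.05) and the scaffold gene ISCU (0.44 ± 0.05) rose. Of 10 regulators of mitochondrial biogenesis, 3 rose and 2 fell, with a median of 0.04. MYC rose by 0.51 ± 0.05, GABPA by 0.37 ± 0.05 and YY1 by 0.26 ± 0.05. The share called over all tested genes was 32.2% in each direction, beside 6 of 6 shuttle enzymes and 73.3% of the coenzyme and nucleotide enzymes that were lower. Iron-sulfur and haem enzymes stood at 46.2% higher and 38.5% lower, and the biogenesis regulators at 30% higher and 20% lower.

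**Figure D5:**
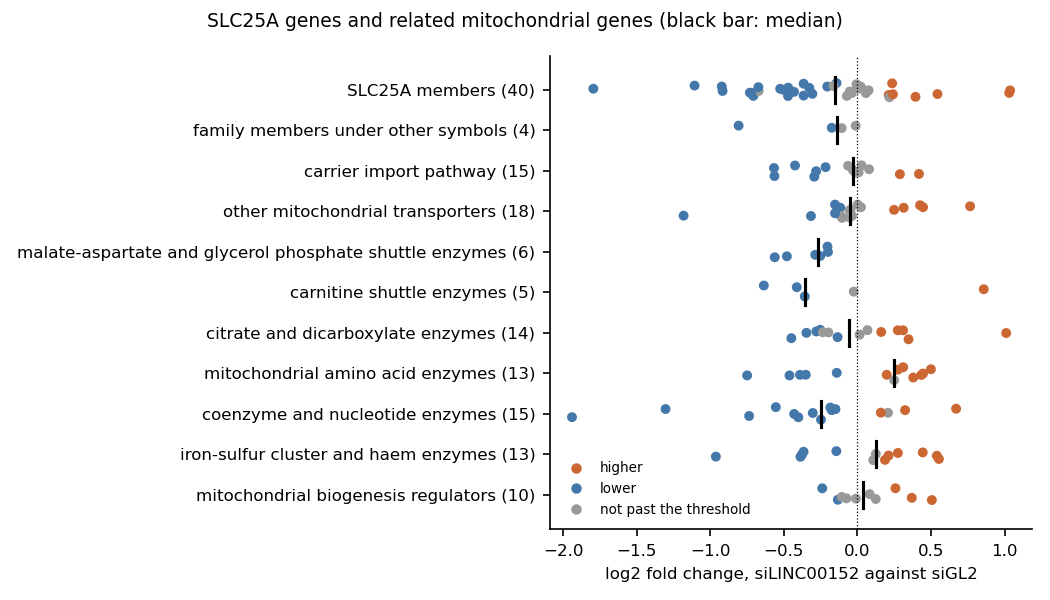
Log2 fold change, siLINC00152 against siGL2 (x), of each tested gene in the carrier family and in 10 related lists (y, number tested in brackets); orange passed upward, blue passed downward, grey did not pass, and black bars are medians. The 6 tested shuttle enzymes all lie left of 0, whereas most lists lie on both sides of it.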

How the data were processed

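PolyA RNA of 6 U87 samples was sequenced with a strand-directional kit, per the labels' protocols. The deposited values are raw counts per gene symbol, 1 table per library; per the submitters' processing notes, bcl2fastq, HISAT, HTSeq and DESeq were used with hg38. The annotation, strand setting and handling of multiply mapped reads were not given in the sources used here. Members were the symbols SLC25A plus a number; substrate classes, related lists and markers were written by hand, and members and lists were chosen with earlier results of these data known.

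Counts were filtered (edgeR 4.0.16 filterByExpr, minimum count 10, minimum total 15), TMM-scaled and compared over all 6 libraries with edgeR's robust quasi-likelihood test in R 4.3.3, two-sided, with Benjamini-Hochberg adjustment over 14078 genes. Standard errors were derived from each fold change and its F statistic. Full values were given by rule to members past an adjusted p of 0.05 with at least 1.5-fold change, to the most abundant member of each class by CPM and to the ADP/ATP carriers, and up to 3 genes with the smallest p were named per related list; other named members were chosen after their values were seen. Alternatives were DESeq2 1.42.0, its size factors in edgeR, library size alone, no filter, each library left out and a block on the replicate letter; the exon union as the length of a gene was added after seeing the data. Transcript lengths and coordinates came from GENCODE 29 (GRCh38, the assembly that hg38 names), in which all 48 members were matched. RefSeq promoter windows were used, but no protein sequences, so none are described. Values of some genes are not reported here.

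No pair of libraries within a group agreed within sampling noise (chi-square per degree of freedom 3.02 to 14.5). On simulated counts for this comparison over 13899 genes, the test recovered 64% of genes changed 1.25-fold and 84% of those changed 1.5-fold, and it called 10 of 13878 genes that had no change. Each of these percentages rests on 50 changed genes. In the data 64.3% of all tested genes passed, which the simulation did not copy, so its rates may not hold for them. For a count of 0 the limit is 3 counts, between 0.0649 and 0.0715 CPM, for counting error only.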

Additional observations from a re-analysis of the deposited data

How the results depend on the processing

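Of the 26 members that passed, 24 did so under all 11 alternatives, including all 10 that changed at least 1.5-fold; the exceptions were SLC25A28 and SLC25A53. Across the alternatives 6 to 7 members rose and 18 to 21 fell, 8 or 9 fell at least 1.5-fold and 2 or 3 rose that far. Leaving out 1 library at a time gave medians of −0.16 to −0.14. With library size alone the members' median log2 fold change moved to −0.22 and that of all tested genes to −0.07, with 7 members higher and 21 lower.

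SLC25A28 was no longer past the threshold with DESeq2, with no filter, or in 5 of the 6 fits that left out a library, at log2 fold changes of −0.16 to −0.12 (adjusted p 0.0516 to 0.137). SLC25A53 was not past it with DESeq2 (adjusted p = 0.114) or in 2 fits that left out a library (adjusted p = 0.0796 and 0.0927). The sign changed only in members that did not pass either way. With library size alone these included SLC25A23 (−0.0094), SLC25A37 (−0.043) and SLC25A46 (−0.048), where all genes shifted down. With 1 library left out they included SLC25A26 (−0.071 to 0.020), SLC25A32 (−0.044 to 0.034), SLC25A37 (−0.0073 to 0.059), SLC25A44 (−0.019 to 0.0044), SLC25A46 (−0.013 to 0.070) and SLC25A51 (−0.019 to 0.036); the cause was not tested.

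The main test did not use the replicate letters as pairs. Deviations of same-lettered libraries correlated weakly, at 0.11 (A), −0.02 (B) and 0.10 (C). For libraries with different letters the correlations ran from −0.15 to 0.06. These values do not settle whether the letters mark pairs. With a replicate block 7 members were higher and 19 lower, 2 and 8 of them at least 1.5-fold, the median was −0.15 and LINC00152 stood at −2.51; no member's call changed. Low counts limit SLC25A18, SLC25A27, SLC25A34 and SLC25A53, with standard errors of 0.20 to 0.32.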
